A study of Homo sapiens with 9 samples.

Results

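The MYC, MAX and MXD network was followed in KHM-5M, an established human thyroid cancer cell line, by RNA sequencing after 24 h with the solvent DMSO, with 0.3 μM of YK-4-279 or with 1 μM of YK-4-279, a small molecule described as an inhibitor of ETS transcription factors. The members were 9 genes chosen by name: MYC, MYCL, MAX, MXD1, MXD3, MXD4, MXI1, MNT and MLX. All 9 were found once each among the 58735 genes of the deposited table, and all 9 passed the filter on low counts in each comparison. Each of the 3 groups had 3 samples from the same line, which per the study carries a BRAF mutation and a mutation of the TERT promoter in all groups alike, and nothing in the labels says whether the 3 came from separate cultures, so the p-values measure the spread between these samples only. The comparison asks how the RNA of this transcription factor network stood at 2 doses of the compound.

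MYC, MYCL and MAX are basic helix-loop-helix leucine zipper proteins that bind DNA as pairs. MYC or MYCL paired with MAX binds the E-box and raises transcription of genes for growth, ribosome production and metabolism. MXD1, MXD3, MXD4, MXI1 and MNT compete for the same partner, MAX, and when paired with it recruit SIN3 and histone deacetylases, which lowers transcription from the same sites. MLX is the partner of a second branch, in which it pairs with the nutrient-sensing factors MLXIP and MLXIPL, and it can also pair with MNT and some MXD proteins. MXD1 and MXD4 are known from differentiating cells, whereas MXD3 is known from dividing cells, in which it is expressed around S phase. All values here are RNA levels, and protein pairing was not measured.

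The libraries held between 16903251 and 18238884 counts, and the share of counts from mitochondrial genes was 2.84% to 3.44%. Where a gene had no counts, its true level could still reach 3 counts, which is 0.164 to 0.177 CPM (counts relative to library size) and covers counting error only. Each of the 9 pairs of samples within a group differed beyond sampling noise, with a chi-square of 3.40 to 11.9 for each degree of freedom, and none was counted as a copy. Mean correlation with the other samples of the same group was lowest in replicate 2 of DMSO (0.9907) and replicate 3 of 0.3 μM (0.9909) and 0.9920 to 0.9928 in the rest. PAX8, a thyroid lineage transcription factor, had 2742 to 3660 counts and FOXE1 7 to 34, and neither was called at 1 μM by edgeR. TG, the hormone precursor, had at most 4 counts. TSHR, SLC5A5, DUOX2 and NKX2-1 had at most 10 counts, so these defining genes of the labelled tissue were at or near 0. Of 5 epithelial markers, KRT8 and KRT18 had at least 22002 and 7028 counts and CDH1 had at most 5. At 1 μM 0 of the 4 tested were called by edgeR, against 17.6% of all genes. The mesenchymal marker VIM had 39355 to 46284 counts, and of the other 4 mesenchymal genes COL1A2 was not tested. At 1 μM FN1 rose and COL1A1 and PDGFRB fell, by log2 fold changes of 0.30, -0.41 and -0.48, against 7.67% and 9.95% of all genes. The groups overlapped for COL1A1, and the calls on markers were not read under other fits. The part of that list in the results on the network was not tested. The 4 blood and endothelial markers had at most 6 counts in any sample.

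Among the 9 genes, MYC RNA was the most abundant per length in DMSO and MYCL the least. The authors' FPKM values, which divide counts by gene length and library size, were used for levels between genes. MYC (ENSG00000136997, chromosome 8 from 127735434 to 127741434, GRCh38) stood at 39.6 ± 2.71 FPKM (SD, n = 3). MXD3 was next at 16.0 ± 0.659 FPKM, so the most abundant member of the repressor group was the one known from dividing cells. MLX, the partner of the second branch, stood at 10.6 ± 0.749 FPKM. MXI1, a repressor partner of MAX, stood at 8.13 ± 0.312 FPKM and MAX itself at 6.87 ± 0.308 FPKM. MXD4, MNT and MXD1 followed at 5.63 ± 0.258, 3.37 ± 0.174 and 2.55 ± 0.308 FPKM. MYCL, a paralog of MYC, stood at 0.328 ± 0.0540 FPKM, from 26 to 34 counts per sample. The ranges of neighbours in this order did not overlap in DMSO, and no test was run on the order. The closest neighbours were MXI1 and MAX, which differed 1.18-fold. Lengths are those of the whole annotated gene, retained introns included, so that a gene with long rare isoforms is given too low a level per length.

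**Figure D1:**
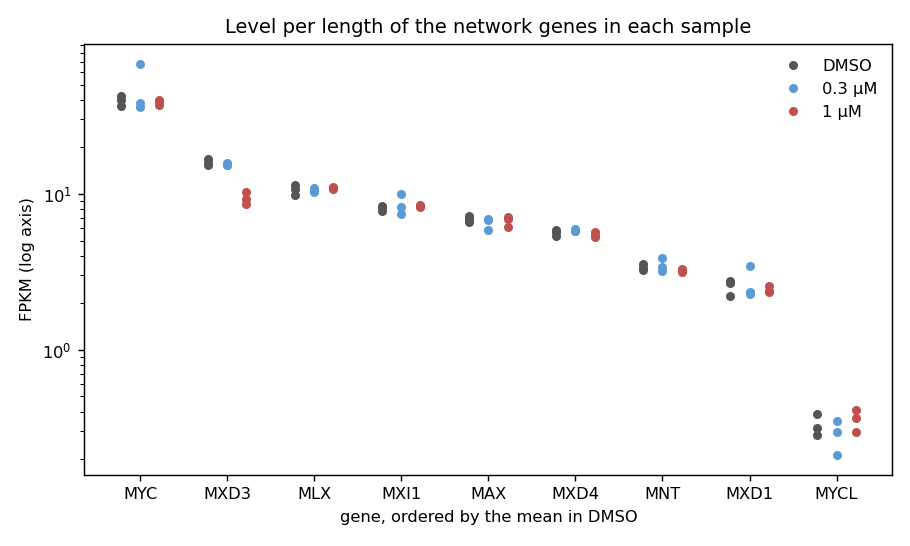
Level per length of the 9 network genes in each sample. The vertical axis is FPKM on a log scale, genes are ordered by their mean in DMSO, each point is a sample and colours mark DMSO, 0.3 μM and 1 μM. MYC stood highest, MYCL lowest, and MXD3 fell below MLX at 1 μM.

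At 1 μM of YK-4-279, 1 of the 9 genes changed: MXD3 RNA fell to 57.8% of its level in DMSO. The other 8 genes, MYC and MAX among them, had log2 fold changes between -0.09 and 0.11 and did not pass the test. MXD3 (ENSG00000213347, chromosome 5 from 177301461 to 177312757) had 1488, 1437 and 1392 counts in DMSO, 1407, 1428 and 1409 at 0.3 μM, and 870, 763 and 898 at 1 μM. The 3 samples at 1 μM lay below all 6 others, and the samples at 0.3 μM lay within the DMSO range. On the scale of CPM after TMM normalization, MXD3 went from 82.5 ± 3.74 in DMSO to 48.6 ± 4.74 at 1 μM (SD, n = 3 each). The log2 fold change was -0.79 (standard error, SE, 0.08, 95% interval -0.95 to -0.63). In edgeR's quasi-likelihood fit the p adjusted over all genes after Benjamini and Hochberg was 1.75e-05, and MXD3 ranked 37 by p among 15617 genes. In bulk RNA, fewer cells that express a gene and less RNA per cell cannot be told apart.

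An adjusted p under 0.05 was called at 1 μM in 17.6% of all genes tested, 7.67% higher and 9.95% lower than in DMSO. The network's share was 1 of 9 (11.1%), which is below that background. The groups did not overlap in 1 of the 9 genes, against 37.4% of all genes. The median log2 fold change was -0.05 over the 9 genes and -0.01 over all genes tested.

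**Figure D2:**
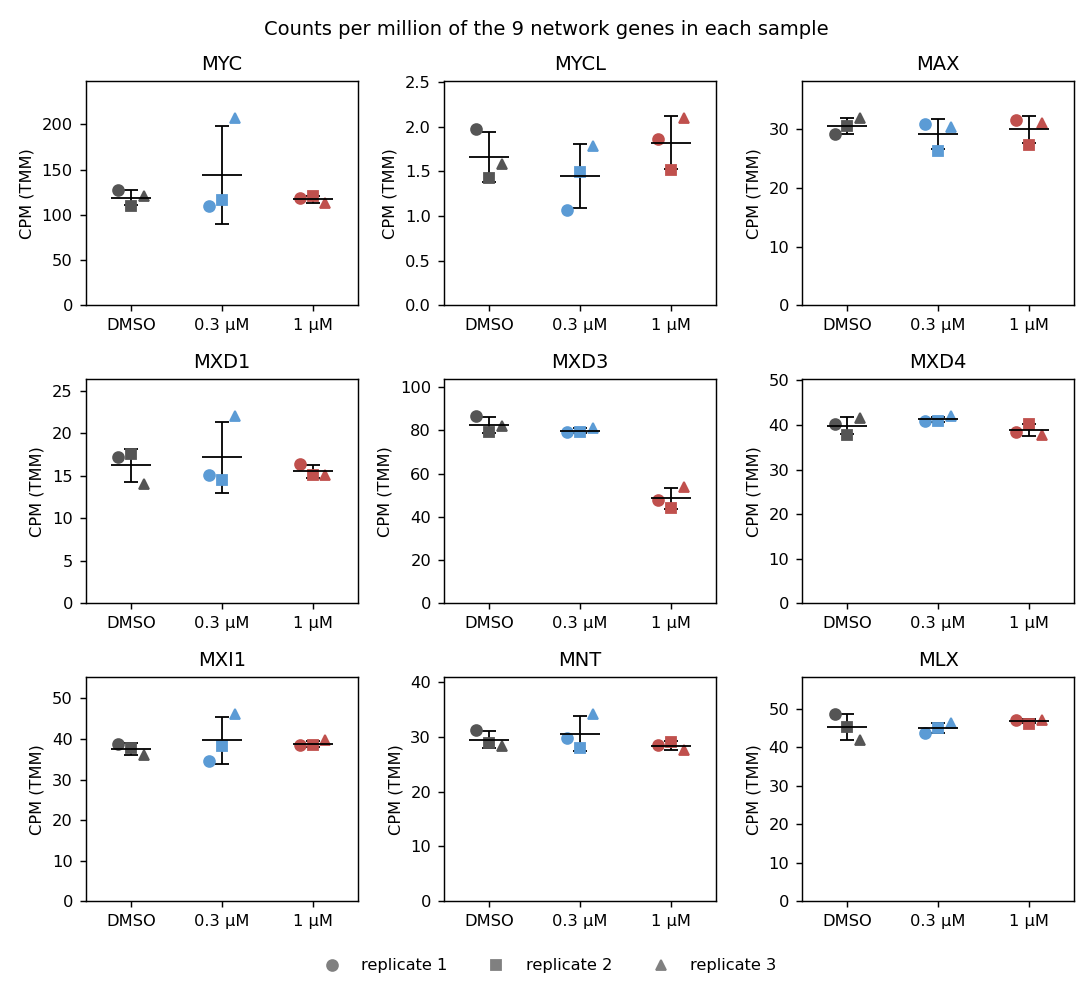
CPM after TMM normalization of each network gene by group. Each point is a sample, its shape gives the replicate number, and the horizontal line with bars gives the mean and SD of 3 samples. MXD3 at 1 μM lies below every other sample, and replicate 3 of 0.3 μM lies highest for MYC, MXD1, MXD4, MXI1 and MNT.

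Parts of MXD3 are shared with neighbouring genes, which bears on its count. RAB24, a small GTPase gene, overlaps its 3′ end on the same strand over 2284 bases, and PRELID1, a gene for a mitochondrial lipid transfer protein, lies within it on the opposite strand over 3186 bases. For RAB24 there were 160, 177 and 151 counts in DMSO and 145, 129 and 145 at 1 μM, all of the latter below the former. Its log2 fold change was -0.24 (SE 0.12), and it did not pass (edgeR, Benjamini-Hochberg adjusted p = 0.210). PRELID1 had 2666, 2152 and 2451 counts in DMSO and 2640, 2822 and 2310 at 1 μM, with groups that overlapped and a log2 fold change of 0.07 (SE 0.09). When MXD3 and RAB24 were summed, a choice made after the data were seen, the log2 fold change was -0.72 with an adjusted p of 2.79e-05 (edgeR, Benjamini-Hochberg). That sum is mostly MXD3, so its value had to stay near that of MXD3 alone and cannot show how shared reads were assigned. When MXD3 was summed with the more abundant PRELID1 the log2 fold change was -0.19 and the adjusted p 0.0798 (edgeR, Benjamini-Hochberg). The study names a stranded library kit and the labels a kit without that word, and the sources used here do not state whether strand was used in counting, and without it reads from MXD3 and PRELID1 over the shared bases cannot be told apart.

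**Figure D3:**
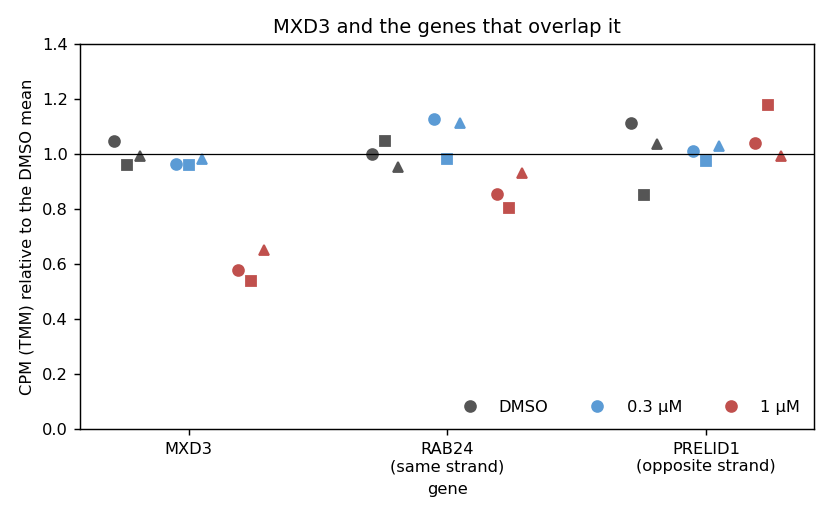
CPM after TMM normalization of MXD3 and the genes that overlap it, each divided by its own mean in DMSO. Points are samples, shapes give replicate numbers and colours give groups. The 3 samples at 1 μM sit at 0.54 to 0.65 for MXD3 and at 0.81 to 0.93 for RAB24, and at 0.99 to 1.18 for PRELID1.

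The bases before the RefSeq start of MXD4, a repressor partner of MAX, are shown because they hold the E-box CACGTG, the letters that pairs of this network bind. The window comes from RefSeq (GRCh38.p14), is chr4:2262110-2262359 on the minus strand and reads 5′ to 3′, with the E-box in capitals. The gene as annotated in the deposited table starts further upstream, so that 185 of the 250 bases lie inside it, and the E-box lies 48 bases before that start.
MXD4: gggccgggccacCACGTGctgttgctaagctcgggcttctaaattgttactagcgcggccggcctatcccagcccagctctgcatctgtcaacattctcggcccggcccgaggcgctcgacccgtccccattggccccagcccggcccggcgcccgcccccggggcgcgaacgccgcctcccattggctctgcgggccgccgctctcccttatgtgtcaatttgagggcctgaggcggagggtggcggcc

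In all, 10 RefSeq windows of 250 bases were used, from MYCL, MAX, MXD1, MXD4, MXI1, MNT and MLX, with 3 of MXI1 and 2 of MAX. Those of MYCL, MXD1 and MAX and some of MXI1 lie wholly inside the gene as annotated in the deposited table. Those of MXD4, MNT and MLX lie partly inside it. Windows of MYC and of MXD3, the gene that changed, are not used here. The E-box, which reads the same on both strands, was found in 3 of the 10, those of MXD4, MNT and MLX, and in 6.34% of all 35116 RefSeq windows of this length. The ETS core GGAA was found on either strand in 9 of the 10, all but that of MXD4, and in 92.7% of all windows. The longer ETS letters CCGGAAGT, which contain GGAA, were found in 0 of the 10 and in 3.42%. The GC box GGGCGG was found on either strand in 9 of the 10, all but 1 of MAX, and in 42.6% of windows. These are matches of letters, and binding was not measured.

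The other repressor partners of MAX kept close to their DMSO level at 1 μM. MXD1 (ENSG00000059728, chromosome 2 from 69897688 to 69942945) had 296, 318 and 238 counts in DMSO and 299, 260 and 252 at 1 μM, with a log2 fold change of -0.09 (95% interval -0.32 to 0.14). MXD4 (ENSG00000123933, chromosome 4 from 2247432 to 2262294) had 693, 686 and 707 counts in DMSO and 702, 694 and 632 at 1 μM, with a log2 fold change of -0.06 (95% interval -0.22 to 0.10). The groups overlapped for both. MXI1 (ENSG00000119950, chromosome 10 from 110207605 to 110287365) had 669, 688 and 612 counts in DMSO and 701, 661 and 664 at 1 μM, with a log2 fold change of 0.02 (95% interval -0.13 to 0.18). MNT (ENSG00000070444, chromosome 17 from 2384060 to 2401118) had 538, 525 and 480 counts in DMSO and 520, 500 and 461 at 1 μM, with a log2 fold change of -0.08 (95% interval -0.25 to 0.09). A fall of the size seen in MXD3 lies outside each of these 4 intervals. MXD1 overlaps SNRNP27, a gene of 214 to 395 counts on the same strand, so its count is less certain.

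The activators and the common partners also did not pass the test at 1 μM. MYC had 2187, 1998 and 2047 counts in DMSO and 2155, 2071 and 1893 at 1 μM, ranges that overlapped. Its log2 fold change was -0.05 (SE 0.06, 95% interval -0.19 to 0.09), with an adjusted p of 0.654 (edgeR, Benjamini-Hochberg). MAX (ENSG00000125952, chromosome 14 from 65006174 to 65102695) had 502, 554 and 541 counts in DMSO and 575, 469 and 519 at 1 μM, with a log2 fold change of -0.05 (95% interval -0.23 to 0.13). MLX (ENSG00000108788, chromosome 17 from 42567068 to 42573239) had 836, 824 and 715 counts in DMSO and 857, 794 and 790 at 1 μM, with a log2 fold change of 0.02 (95% interval -0.14 to 0.18). On the opposite strand MAX overlaps FNTB, a gene of 125 to 171 counts, and MLX overlaps PSMC3IP, with 133 to 243. Whether strand was used in counting is not known, so the counts of MAX and MLX are less certain. MYCL (ENSG00000116990, chromosome 1 from 39895426 to 39902256) had only 34, 26 and 27 counts in DMSO and 34, 26 and 35 at 1 μM. Its 95% interval of -0.49 to 0.70 around a log2 fold change of 0.11 shows that a change of 1.5-fold was not excluded for MYCL at this depth, while it lay outside the interval for the other 7 genes.

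**Figure D4:**
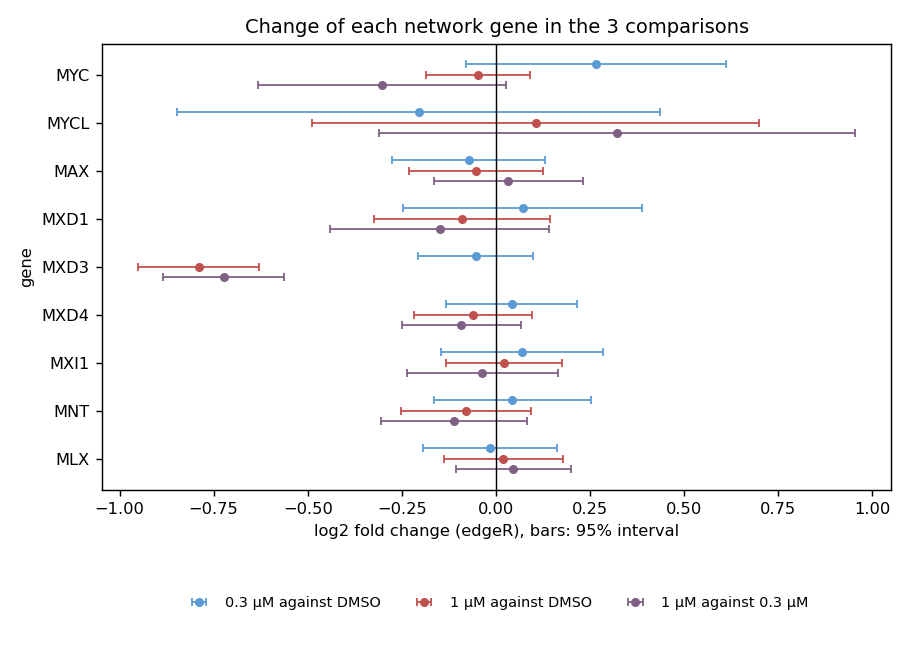
Log2 fold change of each network gene in the 3 comparisons, from edgeR, with bars for the 95% interval. The intervals of MXD3 at 1 μM lie below 0 against both DMSO and 0.3 μM, and those of the other 8 genes cross 0.

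At 0.3 μM 0 of the 9 genes were called, and the number called among all 15762 genes was also 0 (0%) by edgeR's quasi-likelihood test. At an unadjusted p under 0.05 the numbers were 0 of the 9 and 3.77% of all genes, and by DESeq2 0 of the 9 had an adjusted p under 0.05. For MXD3 the log2 fold change was -0.05 (SE 0.07, 95% interval -0.21 to 0.10), so that a fall as large as that at 1 μM lay outside the interval. MYC had the largest value of the 9 in either direction, a log2 fold change of 0.27 (SE 0.16, 95% interval -0.08 to 0.61). It rested on replicate 3.

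MYC had 1943, 2092 and 3589 counts at 0.3 μM. Replicate 3 was 1.62 times the next highest of all 9 samples on the TMM scale (206 against 127 CPM), and the other samples at 0.3 μM lay at 110 and 116 CPM, beside the DMSO range. Without replicate 3 the log2 fold change of MYC at 0.3 μM was -0.08. The same library was the highest of the 9 for 5 network genes. The share of all genes highest in that library was not computed. MXD1 had 382 counts there against 238 to 318 in the rest, MXI1 801 against 612 to 701, and MNT 592 against 461 to 538, while MXD4 differed little from the next sample (1.01-fold). MXD3 had 1409 counts there. On the TMM scale that was 81.1 CPM, the highest of its group, which started at 79.2, and within the DMSO range of 79.1 to 86.5. Without that replicate the log2 fold changes at 0.3 μM were -0.14 for MXD1, -0.05 for MXI1 and -0.04 for MNT, against 0.07, 0.07 and 0.04 with it. TXNIP, a target of MLX and MLXIP, had its lowest count of the 9 samples in that library, 579. The part of this library in the values at 0.3 μM is given by those fits, and what set it apart was not tested.

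Between the doses, MXD3 was again the only network gene called. The level at 1 μM was 60.6% of that at 0.3 μM, or -0.72 on the log2 scale (SE 0.08, 95% interval -0.88 to -0.56; edgeR, Benjamini-Hochberg adjusted p = 2.39e-05). It ranked 17 by p among 15583 genes. An adjusted p under 0.05 was found in 12.6% of all genes, 5.85% higher and 6.75% lower at 1 μM. Both comparisons of 1 μM use the same treated samples, so they are not independent. The groups did not overlap for 2 of the 9 genes (22.2%), against 31.9% of all genes. The other was MXD4, whose log2 fold change of -0.09 (SE 0.08) did not pass (edgeR, Benjamini-Hochberg adjusted p = 0.472). MYC had a log2 fold change of -0.30 (95% interval -0.63 to 0.03, edgeR, Benjamini-Hochberg adjusted p = 0.225), and of 0.04 without replicate 3 of 0.3 μM.

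The balance of activator and repressor RNA was described from FPKM sums in each sample, with no test, since the sum follows from its members. MXD1, MXD3, MXD4, MXI1 and MNT together came to 34.9 to 37.0 FPKM in DMSO, 34.2 to 38.8 at 0.3 μM and 28.2 to 29.6 at 1 μM. Without MXD3 the sum was 19.1 to 20.3 FPKM in DMSO and 19.3 to 19.6 at 1 μM, so that the difference between those groups lay in MXD3. MXD3 made up 43.9% to 45.3% of the repressor sum in DMSO and 30.3% to 34.8% at 1 μM. The ratio of MYC and MYCL to that sum was 1.06 to 1.15 in DMSO and 1.27 to 1.42 at 1 μM. At 0.3 μM the ratio was 1.07 to 1.77, with the highest value in replicate 3. In the order of levels at 1 μM, MLX stood above MXD3, with 10.9 ± 0.107 against 9.34 ± 0.885 FPKM, and MXD3 stood 1.12-fold above MXI1.

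Genes linked to the network were taken from lists. Of the 4 other network genes, MYCN had at most 1 count in a sample and was not tested, and MGA, MLXIP and MLXIPL were not called at either dose. For MGA, a large MAX partner with repressor activity, counts ran from 841 to 923 in DMSO and from 922 to 1047 at 1 μM (log2 fold change 0.17, edgeR, Benjamini-Hochberg adjusted p = 0.104). MLXIP, the partner of MLX, ran from 1788 to 2061 and from 1919 to 2019. Of 14 MYC cofactors, 1 fell at 1 μM, the histone acetyltransferase KAT2A (log2 fold change -0.39, SE 0.09). That is 7.14% of the list, against 9.95% of all genes tested. Of 9 corepressors of MXD and MNT proteins, 0 were called by edgeR, against 17.6% of all genes. Their log2 fold changes lay between -0.17 and 0.16.

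Of 15 genes listed for proteins that act on MYC protein, 3 rose (20%) and 1 fell (6.67%), against 7.67% and 9.95% of all genes tested. The list was not split by how each protein acts on MYC, and the stability of MYC protein was not measured. FBXO28, AURKA and PPP2R5A rose by log2 fold changes of 0.37, 0.23 and 0.29 and the kinase gene PIM1 had -0.22, while 11 did not pass. The call on PIM1 was kept in 4 of 13 other fits and that on PPP2R5A in 12. FBXW7, the gene of the ubiquitin ligase that marks MYC for degradation, was among these 11 with a log2 fold change of -0.31 (edgeR, Benjamini-Hochberg adjusted p = 0.0521). The groups overlapped for FBXW7, and it was not read under other fits.

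Of 40 genes listed as MYC targets, 10 rose (25%), 2 fell (5%) and 28 did not pass at 1 μM, while MYC RNA did not pass the test. Over all genes tested, 7.67% rose and 9.95% fell. The median over the 40 was 0.05 on the log2 scale, against -0.01 over all genes. The rises with the lowest p were those of ODC1, the first enzyme of polyamine synthesis, TFRC, the transferrin receptor, and POLR1B, a subunit of RNA polymerase I. ODC1 had 1994, 2015 and 1916 counts in DMSO and 3245, 3212 and 3108 at 1 μM. The difference was 0.67 on the log2 scale (SE 0.06). TFRC rose by a log2 fold change of 0.54 (SE 0.07) and POLR1B by 0.57 (SE 0.10). The other 7 rises had log2 fold changes of 0.18 to 0.32 and each was lost under 2 to 9 of 13 other fits. The 2 falls were CDK4, a G1 kinase, with a log2 fold change of -0.21 and MTHFD2, a mitochondrial folate enzyme, with -0.25. The count of rises was 3 without replicate 3 of DMSO, 4 without replicate 1 of 1 μM and 5 without replicate 2 or 3 of 1 μM. The share of all genes called in those fits was not computed, so a loss particular to the list cannot be told from fewer calls everywhere. At 0.3 μM 0 of the 40 were called by edgeR, with a median of 0.02.

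Genes listed as repressed by MYC went both ways. CDKN1A, CDKN2B and NDRG1 rose at 1 μM by log2 fold changes of 0.65, 0.50 and 0.25, CDKN1B and GADD45A fell with -0.22 and -0.24, and the sixth, CDKN1C, did not pass. Over all genes tested 7.67% rose and 9.95% fell. NDRG1, CDKN1B and GADD45A lost the call in 4, 5 and 3 of 13 other fits, and CDKN1A and CDKN2B in 0. CDKN1A, the gene for the CDK inhibitor p21 and also a p53 target, had 420, 440 and 412 counts in DMSO and 701, 652 and 669 at 1 μM, and its groups did not overlap.

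TXNIP, the best known target of MLX and MLXIP and an inhibitor of glucose uptake, rose at 1 μM with the lowest p of all 15617 genes. It is on a list of 2 targets chosen with earlier results of these data known, and the part of MLX in its rise was not tested. It had 829, 937 and 831 counts in DMSO and 1788, 1825 and 1789 at 1 μM, which is 1.04 on the log2 scale (SE 0.06; edgeR, Benjamini-Hochberg adjusted p = 2.69e-06). At 0.3 μM its 3 samples were spread from 579 to 1431 counts around a log2 fold change of 0.25 (SE 0.19). ARRDC4, the second gene of that list and a relative of TXNIP, had 11, 19 and 18 counts in DMSO and 30, 30 and 34 at 1 μM (log2 fold change 0.95, SE 0.31), with an adjusted p of 0.0509 (edgeR, Benjamini-Hochberg). Both were higher in 3 of 3 samples at 1 μM than in any DMSO sample. Groups did not overlap, in either direction, in 37.4% of all genes tested.

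**Figure D5:**
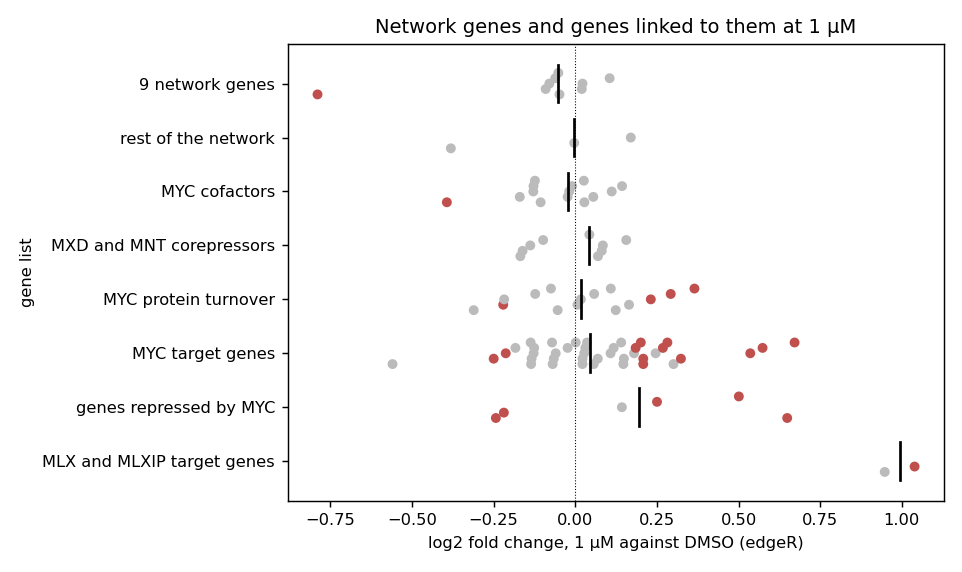
Log2 fold change at 1 μM against DMSO of the network genes and of genes linked to them. Each point is a gene, red marks an adjusted p under 0.05 by edgeR, the vertical bar is the median of the list, and points are shifted vertically only to separate them. MXD3 is the only red point of the network genes, and TXNIP at 1.04 lies furthest right.

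The genes most alike to MXD3 across the samples, by Pearson correlation of log2 CPM over all 9 samples and 14170 genes, were NCAPD3, a condensin subunit (r = 0.991), ECHDC2 (r = 0.985) and TUBB, a beta-tubulin (r = 0.983). Their log2 fold changes at 1 μM were -0.24, -0.57 and -0.49. The 9 samples share 3 treatment groups, and 411 genes had an r over 0.9 with MXD3. The 6 genes MCM2 to MCM7 of the replicative helicase, a list added after the data were seen, all fell at 1 μM with log2 fold changes of -0.34 to -0.20, against 9.95% of all genes. MCM3 lost the call in 1 and MCM6 in 7 of 13 other fits. Among E2F1 to E2F8, 4 fell (E2F1, E2F2, E2F7 and E2F8, with log2 fold changes of -0.31, -0.38, -0.37 and -0.56) and E2F3 rose (0.29), against 9.95% and 7.67% of all genes. The groups overlapped for E2F1, and E2F1, E2F2 and E2F3 lost the call in 8, 6 and 7 of 13 other fits, while E2F7 and E2F8 lost it in 0.

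For MYC the genes most alike were ERRFI1, an inhibitor of EGF receptor signalling (r = 0.981), SLC7A5, an amino acid transporter and itself on the MYC target list (r = 0.974), and NUAK2 (r = 0.968). All 3 had their highest count in replicate 3 of 0.3 μM, with 3771 counts of SLC7A5 there against 2050 to 2494 in the other samples. The correlations without that library were not computed.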

How the data were processed

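RNA from KHM-5M cells was sequenced by the authors in 9 samples, 3 per group. Per their methods, adaptors and low-quality reads were removed and reads aligned to GRCh38 with Hisat2 (2.0.5 in the submitters' processing notes). The methods name HTseq for counting and the notes featureCounts (1.5.0-p3), and whether strand was used is not given in the sources used here. The methods name a stranded TruSeq kit and the labels a TruSeq RNA kit. The methods speak of 2 biological replicates and the labels give 3. The deposited counts are whole numbers per gene, not normalized, and the FPKM values deposited by the authors divide them by gene length and library size. Columns of the authors' own fold changes and p-values were not used.

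Counts were tested with edgeR 4.0.16 in R 4.3.3 (filterByExpr with a minimum count of 10, TMM, glmQLFit and glmQLFTest on the 2 groups compared), with Benjamini-Hochberg adjustment over all genes tested. A gene was called at an adjusted p under 0.05. Standard errors are the log2 fold change over the root of its F statistic, and intervals are 95%. The study's 1.5-fold cutoff, DESeq2 1.42.0, limma 3.58.1 on log2(FPKM + 1) and log2(FPKM + 0.1) and other settings were alternatives. The steps were tested on simulated data.

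The 9 members and the lists were chosen with earlier results of these data known. The text names all members, of each list up to 3 genes per direction with the lowest p among those called at 1 μM, genes not tested, and for MYC and MXD3 the 3 genes most alike (mean level of 1 CPM or more). ARRDC4, MGA, MLXIP, FBXW7, CDKN1C, the motifs searched and the MCM and E2F lists were chosen after values were seen. The main fits did not pair samples by replicate number. Correlations of deviations from group means were -0.08 to 0.15 for equal numbers and -0.11 to 0.11 for others. Between DMSO and 0.3 μM they were 0.04 to 0.15 for equal numbers and -0.11 to 0.01 for others. With so few samples these values cannot show whether equal numbers mark paired samples. Some markers are not reported here.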

Additional observations from a re-analysis of the deposited data

How the results depend on the processing

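The call on MXD3 at 1 μM held under all 13 other fits against DMSO and all 13 against 0.3 μM. The log2 fold change against DMSO was -0.86 to -0.73 with single samples left out, -0.79 with a replicate block (edgeR, Benjamini-Hochberg adjusted p = 0.000104) and -0.72 by limma on log2(FPKM + 1), and against 0.3 μM it was -0.80 to -0.66 with single samples left out. Summing MXD3 with PRELID1 gave -0.19 and ended the call, as the sum is mostly PRELID1. The number of network genes called was 1, 0 and 1 in the 3 comparisons under each alternative with 1 exception. With every gene of at least 1 count, 2 were called between the doses, since MYC then had a log2 fold change of -0.30 and an adjusted p of 0.000812 (edgeR, Benjamini-Hochberg). The cause was not tested, and without replicate 3 of 0.3 μM the value of MYC was 0.04. For the other 8 genes the sign changed in 16 of 312 fits, none of them called. Of the MYC targets, 10 rose and 2 fell. With a replicate block these counts were 4 and 0, with all 9 samples in the fit the falls were 1 and by limma on either pseudocount 1, and with single samples left out the rises were 3 to 10 and the falls 0 to 3. The share of all genes called in these fits was not computed. Of the 23 linked genes called at 1 μM, 9 were called under all 13 alternatives (KAT2A, AURKA, FBXO28, ODC1, POLR1B, TFRC, CDKN1A, CDKN2B and TXNIP) and 14 were lost under at least 1, with the same sign throughout. Of the 11 MCM and E2F genes called, MCM2, MCM4, MCM5, MCM7, E2F7 and E2F8 were called under all 13. Whether equal replicate numbers mark paired samples is not known, and the block changed no call on the network genes. Depth limits MYCL, at 19 to 35 counts.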
